A study of Mus musculus with 4 samples.

Results

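The transcripts described here are noncoding RNAs of 2 kinds: host transcripts that carry small nucleolar RNAs (snoRNAs) in their introns (Gas5, Snhg1, Snhg3, Snhg5, Snhg6, Snhg8, Snhg12 and Zfas1), and the nuclear RNAs Malat1 and Neat1. A member counted as measured where the array's platform annotation gave a probe set exactly 1 gene symbol and that symbol was on this list of 10. This held for 4 of the 10, Snhg5, Snhg6, Malat1 and Neat1, out of 30142 genes with such a probe set, and each had 1 probe set. The other 6, Gas5 among them, share a probe set with a nested snoRNA or microRNA gene (Zfas1 under its older name 1500012F01Rik). The signal of these probe sets cannot be given to the host, so no level of Gas5 itself is reported, and the values of the shared probe sets stand at the end.

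The cells were Lin- c-Kit+ cells (LK cells, which lack markers of mature blood lineages and carry the stem cell factor receptor, and in which blood stem cells and progenitors are enriched) from NOD mice, a strain prone to autoimmune diabetes. The combination group, 2 samples, was kept for 4 h in StemSpan medium with 10 µM dmPGE2, a stabilised analog of prostaglandin E2, and 10 µM dexamethasone, a synthetic glucocorticoid. The vehicle group, also 2 samples, had DMSO in the same medium for the same time. Neither drug was tested alone. The sources used here do not give the age or sex of the mice, and the design text calls the duplicates biological without naming the origin of each. Each sample was read on 1 Affymetrix whole-transcript array, and values are log2 signals made with RMA, which corrects the background, brings the arrays to a common distribution and summarises each probe set. Array medians lay between 4.36 and 4.44, and single background probe sets reached 5.55.

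Noncoding snoRNA hosts are spliced, and the snoRNAs are cut from their introns to guide the chemical modification of ribosomal and other RNAs. The exons of many hosts have little coding potential and are removed by nonsense-mediated decay, which depends on translation. Many hosts start in a terminal oligopyrimidine (TOP) tract, like the mRNAs of ribosomal proteins, and their translation and stability follow growth signals through mTOR. Gas5 was found as a transcript that builds up in growth-arrested cells, and it can act as a decoy that binds the DNA-binding domain of the glucocorticoid receptor. Malat1 lies in nuclear speckles, where splicing factors gather, and Neat1 is the RNA scaffold of paraspeckles.

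The start sites are shown because the pyrimidine tract is the sequence feature that links the hosts to growth signalling. The RefSeq promoter table (build GRCm38.p6) held windows for 8 of the 10 members, with Snhg6 and Neat1 not in it. Each line gives 10 bases before and 40 from the annotated start, 5′ to 3′ on the gene's strand, with capitals for the longest run of C or T that touches the stretch from 5 bases before to 15 after the start.
Snhg5 (chr9:88522858-88522907, minus strand): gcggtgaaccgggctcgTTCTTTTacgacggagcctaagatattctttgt
Malat1 (chr19:5802633-5802682, minus strand): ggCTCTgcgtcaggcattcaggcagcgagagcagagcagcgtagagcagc
Gas5, the later of its 2 starts (chr1:161035156-161035205, plus strand): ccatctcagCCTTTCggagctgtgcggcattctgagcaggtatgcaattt
Snhg12 (chr4:132308668-132308717, plus strand): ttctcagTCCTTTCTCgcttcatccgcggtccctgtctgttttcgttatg

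The run had 7 bases in Snhg5, 6 in this start of Gas5, 9 in Snhg12 and 4 in Malat1. In Snhg1 it had 9 bases and in Snhg8 it had 7, while Snhg3 had 5, Zfas1 had 4 and the earlier start of Gas5 had 3. A run of at least 6 was thus found in 5 of the 9 windows of members, and in 28.7% of all 32851 windows in the table. The runs of Snhg5 and Snhg1 began at positions 8 and 5 of the transcript, so they do not lie at the annotated start. Those of Snhg8, Snhg12 and the later start of Gas5 spanned it. The minimum of 6 was chosen after these runs were seen. In the 300 bases around the starts of the 2 measured members with a window, Snhg5 and Malat1, both strands were searched for binding motifs. The motifs were those of the factors that the drugs act through and that of MYC. The full glucocorticoid response element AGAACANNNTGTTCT and its single arm AGAACA had 0 matches in both genes, against 0.00913% and 18.97% of all windows with at least 1. The full cAMP response element TGACGTCA also had 0 matches in both (1.79% of all windows). The shorter form TGACG, which the full element contains, had 3 matches in Malat1 and 0 in Snhg5 (20.8% of all windows). The E-box CACGTG, bound by MYC, had 0 matches in both (7.15% of all windows).

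None of the 4 measured members was called by the test used here. That test was limma's moderated test on all 65956 features, two-sided, with p-values adjusted by Benjamini-Hochberg over all of them and called at 0.05. It called 0 of the 4 members, against 0.00303% of all features. Il1r2, described below, differed by 5.99 and was not called either (limma adjusted p = 0.094). A missing call therefore does not show that a member was unchanged. Without adjustment, 1 member, Snhg6, had a p under 0.05, a limit that 5.31% of all genes passed. The median difference of the 4 was -0.01 on the log2 scale, next to 0.01 over all genes and -0.06 over the 11463 genes with a mean signal of at least 6. Differences are combination minus vehicle, errors are standard errors (SE) from limma, and intervals are 95% intervals from the same fit, not adjusted for the number of features. With 2 arrays against 2, an exact permutation test cannot go below p = 0.33, so it was not used.

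**Figure D1:**
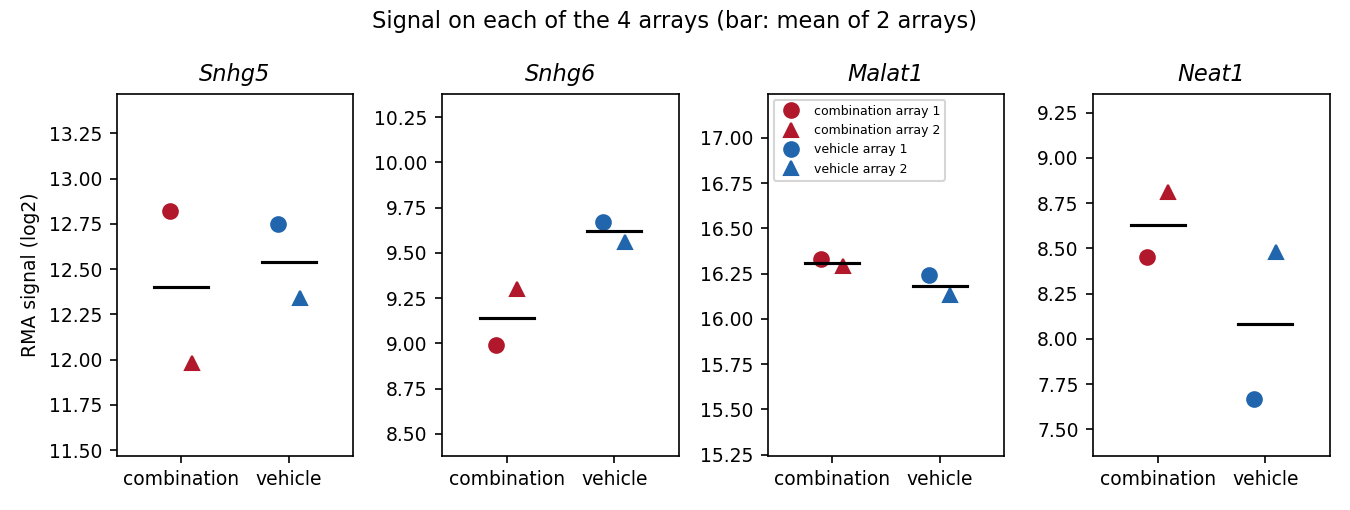
RMA signal (log2, vertical axis, each panel spanning the same range) of the 4 measured members on each array. Red marks are the 2 combination arrays and blue marks the 2 vehicle arrays, circles are replicate number 1 and triangles number 2, and bars are group means; the groups do not overlap for Snhg6 and Malat1 and overlap for Snhg5 and Neat1.

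Snhg6, a short host of the box C/D snoRNA gene Snord87, had signals of 8.99 and 9.30 on the combination arrays, against 9.67 and 9.56 on the vehicle arrays. Both combination arrays lay below both vehicle arrays. The group means were 9.14 ± 0.22 with the combination and 9.62 ± 0.08 with vehicle (SD, n = 2 each). The difference was -0.47 (SE 0.17, interval -0.91 to -0.04), which is 1.39-fold lower, with an unadjusted p of 0.039 and an adjusted p of 0.88 in limma. It was -0.68 in the arrays of replicate number 1 and -0.26 in those of number 2. The lower signal did not pass the test over all features, and 2.65% of all genes had a lower signal at an unadjusted p under 0.05.

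Snhg5, the host of box C/D snoRNAs of the U50 family, had signals of 12.82 and 11.98 on the combination arrays, against 12.75 and 12.34 on the vehicle arrays. The combination arrays lay on either side of both vehicle arrays, so the groups overlapped. The means were 12.40 ± 0.59 and 12.54 ± 0.29 (SD), and the difference was -0.14 (SE 0.33, interval -1.02 to 0.73, limma adjusted p = 0.99). The interval takes in both a lower and a higher signal, so these arrays give no direction for Snhg5. The direction also turned with the arrays used: without combination array 2 the difference was 0.28, and without vehicle array 1 it was 0.06.

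Malat1 had signals of 16.33 and 16.29 on the combination arrays, against 16.24 and 16.13 on the vehicle arrays. The combination arrays were both higher, by little. The means were 16.31 ± 0.03 and 16.18 ± 0.08 (SD), and the difference was 0.13 (SE 0.13, interval -0.21 to 0.47, limma adjusted p = 0.97). Malat1 had the narrowest interval of the 4 measured members. Of all genes, 35.1% had groups that did not overlap, as Malat1 and Snhg6 did among these 4.

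Neat1 had signals of 8.45 and 8.81 on the combination arrays, against 7.67 and 8.48 on the vehicle arrays. Combination array 1 lay just below vehicle array 2, so the groups overlapped, and the low vehicle array 1 stood apart from the other 3. The means were 8.63 ± 0.26 and 8.08 ± 0.57 (SD), and the difference was 0.55 (SE 0.32, interval -0.29 to 1.39, limma adjusted p = 0.94), the largest of the 4 in size. It was 0.78 for replicate number 1 and 0.33 for number 2, and 0.15 without vehicle array 1 and 0.96 without vehicle array 2. The Neat1 locus makes a short and a long isoform, and 1 probe set carried the symbol, so the isoforms were not told apart.

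**Figure D2:**
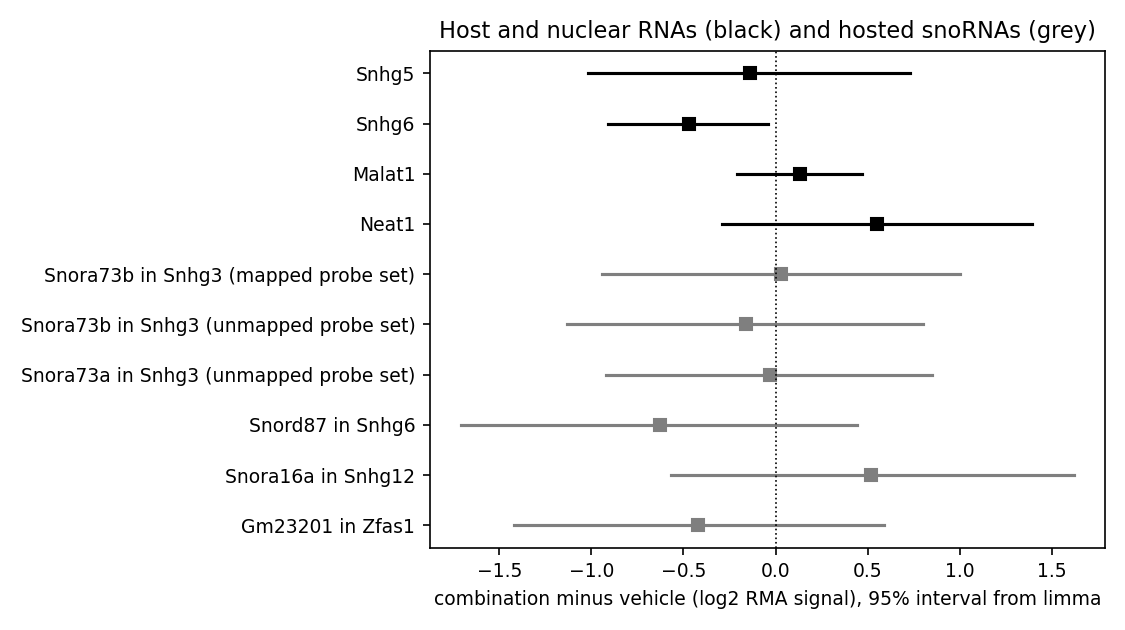
Difference between combination and vehicle (log2 RMA signal, horizontal axis) with its 95% interval from limma, for the 4 measured members in black and the 6 probe sets of hosted snoRNAs in grey. Only the interval of Snhg6, -0.91 to -0.04, leaves out 0, before any adjustment for the number of features.

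A further reading of the hosts came from the snoRNAs themselves. Among the measured members only Snhg6 held a snoRNA with a probe set of 1 symbol. The others read here lie in Snhg3, Snhg12 and Zfas1, hosts without a probe set of their own. The RefSeq gene table placed 29 snoRNA genes inside the 8 hosts, and 5 of these genes, in 4 hosts, had 6 probe sets with 1 symbol. The table used gives no strand, so the strand of the snoRNAs was not checked. Of the 6 probe sets, 0 passed limma's threshold over all features, which 0.00303% of all features passed. An unadjusted p under 0.05 was found in 0, and the groups overlapped in all 6. Over all 959 snoRNA probe sets, 6.57% had such a p and 31.6% had groups that did not overlap. For the 231 with a mean of at least 6 these shares were 14.3% and 40.3%. Counts of 0 in 6 probe sets are therefore not read as a result. The median difference of the 6 was -0.10, next to 0.07 over all 959. An array made from whole-transcript cDNA reads host introns, precursors and mature snoRNAs together, so these signals are not levels of mature snoRNA alone.

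Snord87, the box C/D snoRNA gene in Snhg6, had signals of 8.21 and 9.02 on the combination arrays, against 9.67 and 8.83 on the vehicle arrays. Combination array 1 was the lowest and vehicle array 1 the highest of the 4. The difference was -0.63 (SE 0.41, interval -1.71 to 0.44, limma adjusted p = 0.94). For replicate number 1 it was -1.46 and for number 2 it was 0.20, whereas its host Snhg6 was lower for both numbers.

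Snora73b, a box H/ACA snoRNA gene in Snhg3 that takes part in ribosomal RNA processing, had signals of 13.60 and 13.10 with the combination, against 13.78 and 12.86 with vehicle. Its other probe set, not placed on a chromosome in the array's naming, had 13.36 and 12.97 against 13.81 and 12.84. The 2 probe sets disagreed in sign, with differences of 0.03 and -0.16 that are both small beside their SE of 0.37. Snora73a, its near copy in the same host, differed by -0.03 (SE 0.34), and cross-hybridisation between these copies was not tested. Gm23201 in Zfas1, annotated only as a snoRNA gene, had 7.92 and 7.54 against 8.66 and 7.64, a difference of -0.42 (SE 0.38). Snora16a in Snhg12 was dim, at 5.74 and 5.86 with the combination and at 5.88 and 4.68 with vehicle, close to the range of single background probe sets.

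The hosted snoRNAs differed more between the 2 vehicle arrays than between the groups. All 6 probe sets were lower on vehicle array 2 than on vehicle array 1, by 0.85 to 1.20 on the log2 scale, with a median of -0.95. On the combination arrays 4 of the 6 were lower on array 2, with a median of -0.38. The 231 snoRNA probe sets with a mean of at least 6 had medians of -0.03 on the vehicle arrays and -0.04 on the combination arrays for the same step. Among the measured members, Snhg5 was likewise lower on array 2 in both groups (by 0.84 with the combination and 0.41 with vehicle), and Neat1 was higher on array 2 in both (by 0.36 and 0.81). The late neutrophil granule gene Camp was also lower on array 2 in both groups, with a step of -4.39 with the combination and -5.88 with vehicle. This was the largest step among the neutrophil markers, whose median step was -0.56 with the combination and -0.72 with vehicle. Csf3r, Prtn3, Elane and Mpo of the same markers were higher on array 2 in both groups. The part of cell make-up in these differences was not tested.

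**Figure D3:**
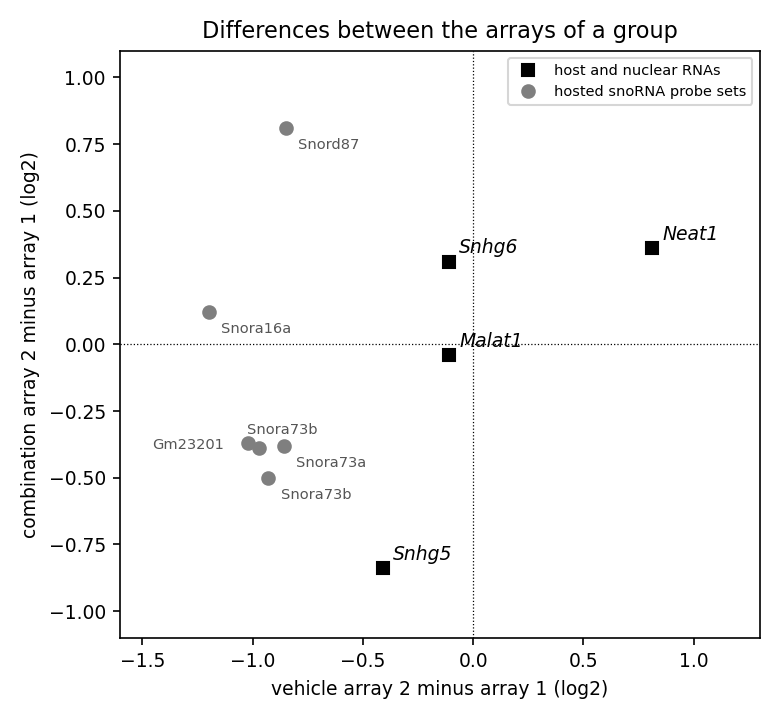
Difference between array 2 and array 1 of each group (log2 RMA signal), with combination on the vertical and vehicle on the horizontal axis, for the 4 measured members (black squares) and the 6 hosted snoRNA probe sets (grey circles). All 6 snoRNA probe sets lie left of 0, between -1.20 and -0.85, on the vehicle axis.

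The genes whose 4 values ran most like those of a member were found by the root mean square distance between log2 profiles, each centred on its own mean, among 11462 genes with a mean of at least 6. The rule had been written for Gas5, and it was applied to the 4 measured members because Gas5 had no probe set of its own. For Snhg6 the 5 nearest genes were Ppan, Plekha3, Ubqln1, Etv6 and Lmbrd2, at distances of 0.012 to 0.027, and for Neat1 they were Zfp946, Sestd1, Capg, Zfp790 and Creb3, at 0.044 to 0.055. For Snhg5 they were Klhl12, 1110032A03Rik, Septin8, Gm15776 and Gm12612, at 0.027 to 0.041. For Malat1 they were Ccdc43, Zfp59, Tpt1-ps5, Gm24265 and Gm20764, at 0.0072 to 0.011. With 4 arrays, many genes lie this close, and the distances are a description.

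The machinery around snoRNA hosts was read through lists of genes, in which limma called 0 genes over all features in every one of the 10 lists. Blocking on the replicate number, limma called 1 gene of the glucocorticoid list and 0 genes of the others. Counts are therefore at an unadjusted p under 0.05, which 2.66% of all genes passed with a higher and 2.65% with a lower signal. Among genes with a mean of at least 6, which most of the listed genes reach, these shares were 3.36% and 5.28%. Of 8 measured genes in the list of other noncoding hosts, which also held Rmrp, a noncoding RNA that hosts no snoRNA, 0 passed in either direction, 4 lay within the background range on all arrays, and the median difference was -0.04. The host Snhg17 was at 6.79 and 7.09 with the combination, against 7.24 and 7.06 with vehicle, and Snhg14 and Snhg9 differed by 0.13 (SE 0.15) and -0.15 (SE 0.17), both within the background range. Of 31 listed protein-coding snoRNA hosts 15 were measured, and 0 of these passed. Their probe sets were taken by annotated gene alone, and whether each lies at the host gene itself was not checked. A lower mean with the combination was found in 14 of the 15, next to 61.4% of genes with a mean of at least 6. The median was -0.11, and without combination array 2 it was -0.01, with 11 hosts lower. The smallest p-values there belonged to Prrc2a, which differed by -0.32 (SE 0.20), the mitochondrial chaperone gene Hspa9, by -0.21 (SE 0.14), and the elongation factor gene Eef2, by -0.16 (SE 0.13). Nucleolin (Ncl) differed by -0.23 (SE 0.21). Of 14 measured translation factors with TOP mRNAs 0 passed, with a median of -0.10 and with Eif4b, a cofactor of the translation helicase, at -0.37 (SE 0.21). Eef2, Eef1b2, Npm1 and Tpt1 stand in both this list and that of the protein-coding hosts. Pabpc1, the poly(A)-binding protein gene, differed by -0.14 (SE 0.12).

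The proteins that bind and assemble snoRNAs lay lower as a list. All 17 measured members had a lower mean with the combination, 3 of them at an unadjusted p under 0.05 and 0 higher, with a median of -0.19. Of the genes with a mean of at least 6, 61.4% had a lower mean with the combination. Other lists leaned the same way. The lower genes were 14 of 15 protein-coding hosts, 13 of 14 paraspeckle proteins, 12 of 14 TOP translation factors and 10 of 13 nonsense-mediated decay factors. In the glucocorticoid list they were 2 of 20. Nolc1, a nucleolar chaperone of snoRNPs, had 12.22 and 11.72 with the combination, against 12.71 and 12.48 with vehicle (-0.63, SE 0.22). Dkc1, the pseudouridine synthase of box H/ACA particles, had 12.35 and 11.92 against 12.72 and 12.67 (-0.56, SE 0.19). Tcof1, a nucleolar partner of RNA polymerase I, had 8.29 and 8.12 against 8.68 and 8.63 (-0.45, SE 0.14). For these 3 genes both combination arrays lay below both vehicle arrays. The core box C/D proteins Fbl, the methyltransferase, and Nop58 differed by -0.18 (SE 0.20) and -0.20 (SE 0.19). Without combination array 2 or without vehicle array 1 the list's median was -0.07 and 12 and 13 members were lower. The members below the limit numbered 1 without combination array 2, 0 without either vehicle array and 4 without combination array 1.

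The decay, speckle and paraspeckle factors showed no calls. Of 13 measured nonsense-mediated decay factors 0 passed, with a median of -0.10, and the helicase Upf1 was at 8.88 and 9.06 with the combination, against 9.20 and 9.16 with vehicle. Smg8 differed by -0.35 (SE 0.25) and the release factor gene Etf1 by -0.17 (SE 0.13). Of 14 measured paraspeckle proteins 0 passed, with a median of -0.12. Nono, a core partner of Neat1, differed by -0.01 (SE 0.14) and Pspc1 by -0.45 (SE 0.24), while Neat1 itself differed by 0.55. Smarca4, a chromatin remodeller, and Taf15 differed by -0.26 (SE 0.18) and -0.19 (SE 0.13). Of 22 measured speckle and splicing proteins 0 passed, with a median of -0.10, and Acin1, an RNA-binding protein tied to splicing, had the smallest unadjusted p there, with a difference of -0.28 (SE 0.13). Rnps1 and the splice site factor gene U2af2 differed by -0.18 (SE 0.14) and -0.22 (SE 0.18).

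Among 11 other long noncoding RNAs, 1 was higher and 1 lower at an unadjusted p under 0.05. Lncpint, a p53-induced RNA, had 6.66 and 7.09 with the combination, against 5.98 and 6.09 with vehicle, a difference of 0.84 (SE 0.19, limma adjusted p = 0.70). Morrbid, which controls the lifespan of short-lived myeloid cells by way of Bcl2l11, had 7.43 and 7.66 against 8.16 and 8.29, a difference of -0.68 (SE 0.15, limma adjusted p = 0.68). Their groups did not overlap, while those of Ptprv did (-0.30, SE 0.21). For Lncpint and Morrbid the differences exceed that of Snhg6 in size. The list's median was -0.11, and it turned to 0.06 without combination array 2 and to 0.03 without vehicle array 1.

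Growth and glucocorticoid genes give the setting in which the hosts were read. Of 22 measured genes of the mTOR pathway and growth arrest, 4 were higher and 1 lower at an unadjusted p under 0.05, with a median of -0.11 that turned to 0.02 without combination array 1. Deptor, an inhibitor of mTOR, had 8.20 and 8.57 with the combination, against 7.46 and 7.49 with vehicle (0.91, SE 0.17, limma adjusted p = 0.56). Larp1, which binds TOP mRNAs, had 13.62 and 13.39 against 14.25 and 14.01 (-0.63, SE 0.17, limma adjusted p = 0.79). Ddit4, a stress-induced inhibitor of mTOR signalling, and Btg1, an antiproliferative factor, differed by 1.44 (SE 0.29) and 0.97 (SE 0.21). Of 20 genes in the list of the glucocorticoid receptor and its targets, 14 were higher and 0 lower, with a median of 1.11, and 16 were higher when the fit was blocked on the replicate number. This list was drawn up with earlier results of these arrays known, so its direction is no independent evidence. Il1r2, a decoy receptor for interleukin-1, had 10.25 and 10.95 with the combination, against 4.36 and 4.86 with vehicle, where it lay within the background range. Per1, a clock gene, differed by 2.07 (SE 0.19), Nfkbia, an inhibitor of NF-kB, by 1.91 (SE 0.19) and Tsc22d3, the glucocorticoid-induced leucine zipper gene, by 1.22 (SE 0.13).

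**Figure D4:**
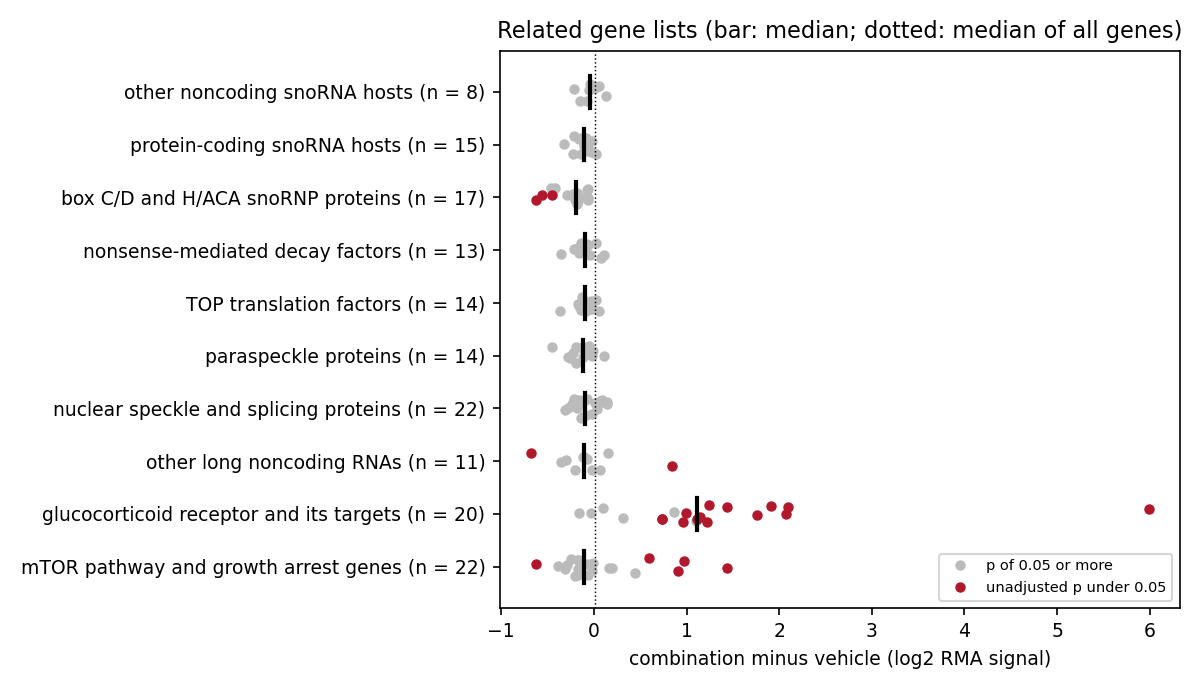
Difference between combination and vehicle (log2 RMA signal, horizontal axis) of each measured gene in the 10 related lists, with the list median as a black bar and the median of all genes, 0.01, as a dotted line. Red points have an unadjusted p under 0.05 in limma; list medians lie between -0.19 and -0.04 except for the glucocorticoid list at 1.11.

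The labelled cell type was checked on its markers. Kit had 10.51 and 9.62 with the combination and 10.18 and 10.32 with vehicle. Of 9 measured T and NK cell markers 8 lay within the background range on all arrays, as did 6 of 9 for B cells. In limma 2 of the B cell markers were lower at an unadjusted p under 0.05, both dim: Blnk (-0.90, SE 0.23) and Ebf1 (-0.55, SE 0.18). The B cell median was -0.17, and 0 of the T and NK cell markers passed that limit. The exception among the T and NK cell markers, Nkg7, was bright, at 12.60 and 12.75 with the combination, against 13.03 and 12.51 with vehicle. Among the 14 neutrophil markers, some early and late granule genes ran differently. The early granule genes Mpo and Elane were bright and even, with Mpo at 17.63 and 17.88 with the combination, against 17.86 and 18.13 with vehicle. The late granule genes Camp and Ltf were far lower on array 2 of both groups, with Camp at 12.80 and 8.41 with the combination, against 13.51 and 7.63 with vehicle. Mmp9 of the same list lay within the background range on all arrays. Csf3r was higher on array 2 in both groups, by 0.42 with the combination and 1.01 with vehicle. The median step from array 1 to array 2 over the neutrophil list was -0.56 with the combination and -0.72 with vehicle. Of these markers Cxcr2 and Mmp8 differed between the groups at an unadjusted p under 0.05, by 4.32 (SE 0.38) and 2.43 (SE 0.70).

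The summed neutrophil signals, which Mpo and Elane dominate, were 18.93 and 19.08 with the combination, against 19.06 and 19.16 with vehicle, on the log2 scale. Of 13 monocyte, macrophage and dendritic cell markers, 4 were lower and 1 higher at an unadjusted p under 0.05, with a median of -0.06. Cd209a differed by -2.25, Ccr2 by -1.77 and Csf1r by -0.91, and C1qb by 1.09. Their summed signal, led by Ly6c2, was 12.17 and 12.41 with the combination, against 12.22 and 12.77 with vehicle. Of 9 measured stem and progenitor markers 1 was lower at that limit, Cd48 (-0.94, SE 0.27), which leads their sum, and the differences of the others lay between -0.23 and 0.19. Summed erythroid markers were at 17.25 and 16.10 with the combination, against 17.55 and 16.41 with vehicle, so the sum, led by Car1, was lower on array 2 in both groups, as Snhg5 was. Slc4a1 and Alas2 of the same list were higher on array 2 in both groups. All 7 measured erythroid markers had a lower mean with the combination, and 1, Tfrc (-0.79), passed the unadjusted limit. Of 10 mast cell and basophil markers 2 were higher at that limit (Hdc, 1.71, and Gzmb, 1.53) and 1 lower (Ms4a2, -0.40). Their median was -0.21, and 6 of the 10 had a lower mean with the combination, Mcpt8 and Cpa3 among them. Of 8 measured megakaryocyte and platelet markers 1 was higher (Ppbp, 5.52) and 1 lower (Gp5, -1.04). Of 9 measured stromal and endothelial markers 1 was higher (Lepr, 3.49), and 7 lay within the background range. In bulk RNA, fewer cells of a type and less RNA per cell cannot be told apart, and the part of cell make-up in the values of the noncoding RNAs was not tested.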

How the data were processed

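The values analysed are log2 signals per probe set that the authors deposited. The submitters' processing notes name RMA and the Transcriptome Analysis Console; their versions and the genome build are not stated there. RMA compresses low signals, so folds of dim probe sets are understated, and it hides any shift in overall RNA content. Of 72688 rows, 6732 control rows were left out, leaving 65956 features. In the platform annotation 30604 of these carried 1 symbol and 2146 carried several, which were not named; 33206 had no gene listed. Symbols were updated through Entrez identifiers (827 changed), giving 30142 genes, each read on its brightest feature. The fit was limma 3.58.1 (lmFit, eBayes) in R 4.3.3, with group as the only term, 2 residual degrees of freedom and 2.59 from the prior. A run on simulated data, with noise drawn from limma's own prior, required only that the fit return the differences put in. That check does not measure power or false calls on these arrays. Precision is limited by having 2 arrays per group.

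Named were all measured members, hosted snoRNAs, and in each related list the 3 genes with the smallest p. Added after values were seen were Ncl, Fbl, Nop58, Nono, Larp1, Tsc22d3 and the cell type markers named. The members and lists were chosen with earlier results of these data known. The alternatives were a block, other priors, filters, normalizations, control rows and leaving out each array.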

Additional observations from a re-analysis of the deposited data

How the results depend on the processing

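In limma, 0 of the 4 measured members were called over all features in each of 12 alternatives that could hold them. Their adjusted p-values ranged from 0.54 to 1.0. Over all features the 2 calls became 19 with the replicate number as a block, and 0 with an intensity trend, with either filter on dim features, after a second quantile normalization, with control rows kept and without any 1 array. The members at an unadjusted p under 0.05 in limma, 1 at first, were 2 with the replicate block (Snhg6 and Neat1). They were 0 with the trend, with the median filter and after the second quantile normalization. The share of all genes past that limit, 5.31% at first, was not counted in these alternatives. These changes can therefore not be read as particular to the members. Members whose groups did not overlap, 2 at first, were 1 after centring the arrays, where 35.6% of all genes did not overlap, and 2 to 4 without 1 array, where 64.5% to 70.3% did not. The members' median difference ran from -0.13 to 0.21 without 1 array, and that of the hosted snoRNAs from -0.56 without vehicle array 2 to 0.36 without vehicle array 1. Snhg5 turned to 0.28 without combination array 2 and to 0.06 without vehicle array 1. Without 1 array, Snhg6 ran from -0.63 to -0.32, Malat1 from 0.07 to 0.18 and Neat1 from 0.15 to 0.96, each in its first direction. The list counts without 1 array and with the block were added after seeing the data. The cause of these shifts was not tested, beyond fewer arrays or features in some fits. The labels tie the samples by number alone. Differences between array 2 and array 1 correlated between the groups at 0.33 over all features and at 0.63 over genes with a mean of at least 6, with 2 numbers, which do not settle a pairing. Each measured member had 1 probe set, so averaging probe sets gave no further value.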

Other observations

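The 6 members without a probe set of their own share a probe set with genes nested in them, and the values below belong to the probe set, not to the host alone. The probe set annotated with Gas5, Snord47 and Mir5117 had 13.11 and 13.05 on the combination arrays, against 13.27 and 13.25 on the vehicle arrays. Both combination arrays were lower, with a difference of -0.18 (SE 0.13, interval -0.51 to 0.15, limma adjusted p = 0.95). The probe set annotated with Snhg12, Snora44, Snora61 and Snord99 had 10.42 and 10.31 with the combination, against 10.47 and 10.58 with vehicle, a difference of -0.16 (SE 0.13, limma adjusted p = 0.95).

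The groups overlapped for the remaining 4 shared probe sets. The one annotated with Zfas1 under its older name and Snord12 had 12.60 and 12.40 with the combination, against 12.97 and 12.46 with vehicle, a difference of -0.22 (SE 0.22). The one with Snhg1 and Snord22 differed by -0.09 (SE 0.15), the one with Snhg3 and Snora73a by -0.05 (SE 0.23), and the one with Snhg8 and Snora24 by 0.13 (SE 0.18). In these 6 probe sets, 5 differences were below 0, as were 61.4% of those of genes with a mean of at least 6. The groups did not overlap in 2, next to 35.1% of all genes, and limma called 0 of the 6 over all features, with an unadjusted p of 0.22 or more in each.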
